A study of Mus musculus with 23 samples.

Results

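The miR-103 and miR-107 family was described in mouse liver through its 5 mature miRNAs, which the table lists as mmu-miR-103-3p, mmu-miR-103-1-5p, mmu-miR-103-2-5p, mmu-miR-107-3p and mmu-miR-107-5p. They were taken by name, with no cutoff on their values, from a table of 1218 mature miRNAs counted by small RNA sequencing. Earlier results of these data were known when they were chosen. The libraries came from the livers of 23 male C57bl/6J mice of the third generation of a feeding study, with 1 library per mouse. The reference group (STD_Cont, n = 8) came from the control fatty acid lineage, raised on high-oleic sunflower oil, and ate a low-fat diet. The HFoleic group (HFD_Cont, n = 8) came from the same lineage and ate a diet high in fat and sucrose. The HFepa group (HFD_O3, n = 7) came from the n-3PUFA lineage, raised on a fish oil rich in EPA, an omega 3 fatty acid, and ate the same high-fat diet. No low-fat group of the n-3PUFA lineage was analysed here, so HFepa vs. reference differs in both diet and lineage.

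A miRNA is a short RNA, cut from a hairpin precursor, that guides silencing proteins to messenger RNAs. Target choice rests mainly on the seed, the bases near its 5′ end. One strand of the hairpin usually enters the silencing complex as the guide, and the other is mostly degraded. The hairpins of this family lie inside introns of the Pank genes, which encode pantothenate kinases, the enzymes of the first step of coenzyme A synthesis. In liver and fat of obese mice, miR-103 and miR-107 are known for lowering insulin sensitivity, with caveolin-1, a stabilizer of the insulin receptor, as a described target.

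The mature sequences are shown because the levels of both 3p members rest on a single base. They were taken from RefSeq for GRCm38.p6, where 5 of the 5 members matched by name, and capitals mark the seed, bases 2 to 8 from the 5′ end.
miR-103-3p: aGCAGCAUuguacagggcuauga
miR-107-3p: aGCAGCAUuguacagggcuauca
miR-103-1-5p: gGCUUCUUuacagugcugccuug
miR-103-2-5p: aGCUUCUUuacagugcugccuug
miR-107-5p: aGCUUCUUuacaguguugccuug
The 3p members share the seed and 22 of 23 bases. They differ by G22C, with positions counted from the 5′ end, miR-103-3p first. A read that ends before position 22 is the same for both, and how such reads were assigned is not given in the sources used here. Among the 5p members, miR-103-2-5p differs from miR-107-5p by C16U and from miR-103-1-5p by A1G. Of the 1045 table entries with a RefSeq sequence, only the 2 3p members hold GCAGCAU at bases 2 to 8.

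The hairpins are printed because the same miR-103-3p is cut from 2 of them, so that its counts cannot be divided between those loci. Capitals mark the mature 5p and 3p strands.
Mir103-1: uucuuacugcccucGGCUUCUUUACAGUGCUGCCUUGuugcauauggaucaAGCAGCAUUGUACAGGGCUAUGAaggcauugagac
Mir103-2: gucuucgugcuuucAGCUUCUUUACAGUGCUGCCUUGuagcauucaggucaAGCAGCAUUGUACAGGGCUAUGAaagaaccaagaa
Mir107: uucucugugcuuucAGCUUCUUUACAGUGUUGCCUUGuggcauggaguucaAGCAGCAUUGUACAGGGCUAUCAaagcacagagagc
In GRCm38, Mir103-1 lies on chromosome 11 from 35782396 to 35782481 on the plus strand, in intron 5 of Pank3. Mir103-2 lies on chromosome 2 from 131288052 to 131288137 on the plus strand, in intron 5 of the 7-exon coding transcript of Pank2. Mir107 lies on chromosome 19 from 34820687 to 34820773 on the minus strand, in intron 5 of the 7-exon coding transcripts of Pank1. Each hairpin has the direction of its host gene and overlaps no annotated exon of it. The counts themselves carry no coordinates.

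Total counts per library were 5242218 to 8139344 in the reference group, 4340903 to 7220112 in HFoleic and 3725432 to 4947990 in HFepa. Of the 1218 entries, 386 passed the filter on low counts and were tested. The sum of 5 hepatocyte miRNAs, including miR-122-5p, was 264265 to 357581 CPM (read counts scaled to a common library total with TMM factors) in 22 libraries and 187969 CPM in reference library 3. In that library the sum of 5 biliary epithelial miRNAs was 1094 CPM, against 150.8 to 333 CPM in the others, and that of 5 stellate cell and fibroblast miRNAs was 42501 CPM, against 19867 to 33216 CPM. Reference library 4 stood apart in the muscle miRNAs (217 CPM against at most 12.2 CPM) and reference library 5 in the pancreas miRNAs (2021 CPM against at most 57.4 CPM). By their labels, numbers 1 to 8 are reference, 9 to 15 and 23 HFoleic, and 16 to 22 HFepa. Every reference library thus has a lower number than every HFoleic and every HFepa library. In HFoleic vs. reference and in HFepa vs. reference, library number and group therefore cannot be told apart.

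Both 3p strands were abundant and the 5p strands were rare. In all libraries together miR-103-3p had 213592 reads, 0.171% of all counts, and miR-107-3p had 139716, 0.112% of all counts. By mean CPM, miR-103-3p ranked 43 of 1218 in reference, 41 in HFoleic and 42 in HFepa livers, and miR-107-3p ranked 52, 47 and 49. These 2 members passed the filter on low counts, and the 3 5p members did not.

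The level of miR-103-3p was similar in the groups. It ran from 1443 to 1828 CPM in the reference group with a median of 1681, from 1676 to 1902 CPM in HFoleic with a median of 1814, and from 1453 to 1936 CPM in HFepa with a median of 1588. The groups overlapped widely, with the highest and the second-lowest library both in HFepa and the lowest being reference library 3. Reference mice averaged 1678 ± 124 CPM (SD, n = 8), HFoleic mice 1801 ± 81.8 CPM (SD, n = 8) and HFepa mice 1643 ± 166 CPM (SD, n = 7). Within groups miR-103-3p was one of the steadier miRNAs, with a mean coefficient of variation of 7.34%, the 8th lowest of 386.

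The level of miR-107-3p was higher in HFoleic than in most reference livers. It ran from 550.4 to 1215 CPM in the reference group with a median of 967, from 1192 to 1557 CPM in HFoleic with a median of 1222, and from 973 to 1409 CPM in HFepa with a median of 1080. Reference library 6, at 1215 CPM, was the only reference library above the lowest HFoleic library, whereas the HFepa libraries overlapped both other groups. Reference mice averaged 979 ± 205 CPM (SD, n = 8), HFoleic mice 1282 ± 127 CPM (SD, n = 8) and HFepa mice 1147 ± 174 CPM (SD, n = 7). Reference library 3 held the lowest value, and without it the reference mean was 1041 ± 118 CPM (SD, n = 7). The mean coefficient of variation of miR-107-3p within groups was 15.3%, position 121 from the lowest of 386. In liver tissue, fewer cells of a type and less of a miRNA per cell cannot be told apart.

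**Figure D1:**
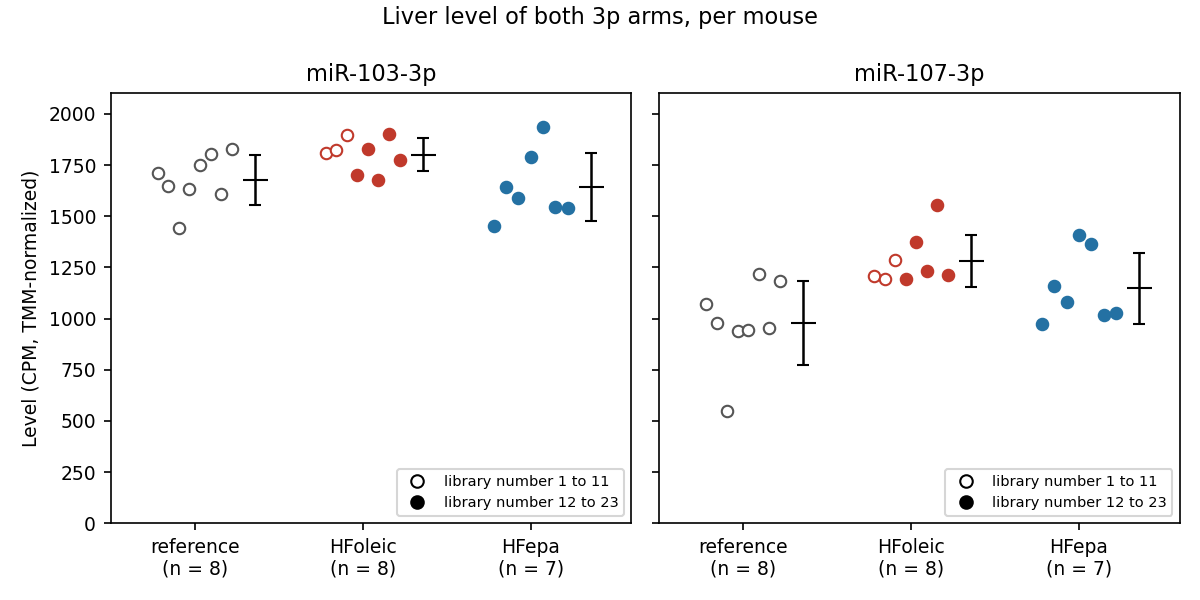
Liver level of miR-103-3p (left) and miR-107-3p (right) in CPM on a linear axis from 0, 1 point per mouse in the reference, HFoleic and HFepa groups, with the mean ± SD in black beside each group. Open points are libraries numbered 1 to 11 and filled points 12 to 23. The miR-103-3p points of the groups overlap, whereas for miR-107-3p 7 of 8 reference points lie below the HFoleic points and reference library 3 is lowest at 550.4 CPM.

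In HFoleic vs. reference, which compares the diets within the control lineage, miR-107-3p rose in the edgeR fit, a call that most other settings did not keep, and miR-103-3p did not pass the test. A member counts as called when its adjusted p is below 0.05 and its log2 fold change exceeds 0.25 in size; adjusted p-values for levels come from the edgeR quasi-likelihood test after Benjamini-Hochberg correction. The log2 fold change of miR-107-3p was 0.39 (standard error 0.12, 95% interval 0.14 to 0.64), a fold of 1.31, with an adjusted p of 0.0357 (edgeR). That of miR-103-3p was 0.10 (standard error 0.06, 95% interval -0.02 to 0.23), with an adjusted p of 0.263 from the same edgeR test. Thus 1 of the 2 tested members was called, where 12.4% of all tested miRNAs were called, 4.92% as higher and 7.51% as lower, and 28.5% had an unadjusted p under 0.05. The call of miR-107-3p was lost in 9 of 11 other settings, where its log2 fold change stayed between 0.21 and 0.41. The setting with no fold threshold kept the call, but it uses the same fit and could not have lost it. Its adjusted p was 0.0603 with DESeq2, 0.255 with quantile normalization and limma, 0.0595 with library size alone, 0.118 with upper-quartile factors, 0.0710 with no filter on low counts, 0.0697 with only the groups compared and 0.437 with the library-number term in edgeR. The call was kept in 17 of 23 fits that each left out 1 library and lost without reference library 4 or 5, HFoleic library 13, 14 or 15, or HFepa library 18, with log2 fold changes between 0.30 and 0.46 over all 23 fits. In HFoleic libraries 9 to 11 miR-107-3p was 1230 ± 48.1 CPM (SD, n = 3) and in the other HFoleic libraries 1314 ± 154 CPM (SD, n = 5). With libraries 1 to 11 alone its log2 fold change was 0.33 (standard error 0.19, adjusted p = 0.662, same edgeR test), and it was not called. Without reference libraries 3, 4 and 5, left out together after seeing the data, it was 0.21 (adjusted p = 0.218, same edgeR test), and it was not called either.

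In HFepa vs. reference, 0 of the 2 tested members were called, where 15.8% of all tested miRNAs were, 5.18% as higher and 10.6% as lower, and 28.5% had an unadjusted p under 0.05. The log2 fold change of miR-107-3p was 0.23 (standard error 0.12, 95% interval -0.03 to 0.48, adjusted p = 0.234) and that of miR-103-3p was -0.03 (standard error 0.06, 95% interval -0.16 to 0.10, adjusted p = 0.796, edgeR). Both intervals include 0, and that of miR-107-3p also includes the size found in HFoleic.

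HFepa vs. HFoleic compares the lineages under the same diet. Here 0 of the 2 tested members were called, and 0% of all tested miRNAs were, by edgeR. At an unadjusted p under 0.05 there were 22 of 386 miRNAs, 5.7%, with miR-103-3p among them. Its log2 fold change was -0.13 (95% interval -0.26 to -0.01, adjusted p = 0.771), and that of miR-107-3p was -0.16 (95% interval -0.42 to 0.10, adjusted p = 0.937, edgeR). DESeq2 and limma also called 0 of the 2 members. The unadjusted p of miR-103-3p was 0.101 with DESeq2, 0.174 with limma and 0.135 with only the groups compared in edgeR. With at least 10 counts in every library it was 0.0308 in edgeR.

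When both high-fat groups were set against the reference group, miR-107-3p was called again, 1.24-fold, at 0.31 on the log2 scale (standard error 0.11, 95% interval 0.09 to 0.53, edgeR adjusted p = 0.0389). For miR-103-3p it was 0.04 (95% interval -0.07 to 0.14, adjusted p = 0.670, same edgeR test). This is 1 of 2 members, where 19.2% of all tested miRNAs were called, 5.96% as higher and 13.2% as lower, and 32.1% had an unadjusted p under 0.05. The comparison uses the same reference libraries as those above and is not independent of them. This call too was lost in 7 of 9 other settings, with an adjusted p of 0.0640 with library size alone, 0.148 with upper-quartile factors, 0.05001 with DESeq2, 0.249 with limma, 0.0752 with no filter, 0.729 with the library-number term and 0.372 without reference libraries 3, 4 and 5, where the log2 fold change was 0.13. The setting with no fold threshold kept the call, but could not have lost it. In edgeR the call was kept in 13 of 23 fits that left out 1 library. It was lost without reference library 3, 4, 5 or 7, HFoleic library 14 or 15, or HFepa library 17, 18, 19 or 20, and its log2 fold change was 0.22 without reference library 3.

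**Figure D2:**
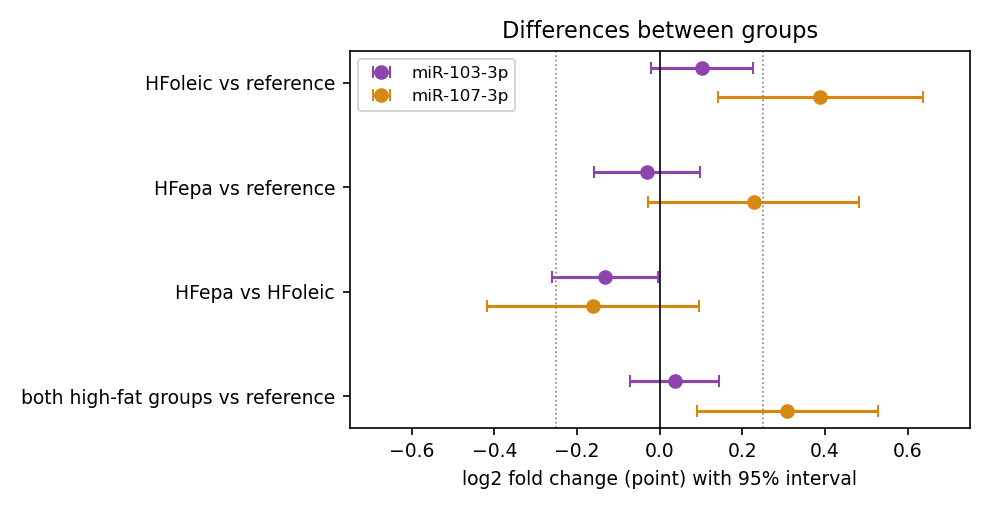
Log2 fold changes of miR-103-3p (purple) and miR-107-3p (orange) in the 4 comparisons, as points with their 95% intervals from the edgeR fit. The solid line is 0 and the dotted lines mark 0.25 in either direction. The miR-107-3p intervals lie above 0 in HFoleic vs. reference (0.14 to 0.64) and in both high-fat groups vs. reference (0.09 to 0.53). That of miR-103-3p lies below 0 in HFepa vs. HFoleic (-0.26 to -0.01), where its edgeR adjusted p was 0.771. The intervals are not adjusted for the number of miRNAs tested.

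The share of miR-103-3p in the summed reads of miR-103-3p and miR-107-3p compares the near-identical strands within a library and needs no scaling between libraries. It was lower in both high-fat groups than in the reference group. The share rests on base 22, and how reads that end before it were assigned is not given in the sources used here. The authors' alignment also allowed mismatches, and the effect of either on the share was not tested. The share ran from 59.7% to 72.4% in the reference group with a median of 62.7%, from 55.0% to 60.4% in HFoleic with a median of 59.1%, and from 55.9% to 60.3% in HFepa with a median of 59.5%. In 7 of the 8 reference libraries it was above that of every high-fat library, and reference library 6, at 59.7%, lay among them. The 95% Wilson interval of a library's share reached at most 0.936 percentage points to either side, which covers counting error only.

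The mean share was 63.5 ± 3.94% (SD, n = 8) in reference mice, 58.5 ± 1.81% (SD, n = 8) in HFoleic and 59.0 ± 1.498% (SD, n = 7) in HFepa. HFoleic was lower than reference by a difference of -5.05 percentage points (two-sided exact permutation test, p = 0.000466, adjusted p = 0.000932 over the 4 comparisons). HFepa vs. reference differed by -4.53 points (exact permutation p = 0.00202, adjusted p = 0.00269), and both high-fat groups vs. reference by -4.81 points (exact permutation p = 1.43e-05, adjusted p = 5.71e-05). Between HFepa and HFoleic the difference was 0.521 points, within the spread of the mice (exact permutation p = 0.558).

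Reference library 3 had the highest share, 72.4%, and without it the reference mean was 62.3 ± 1.78% (SD, n = 7). The differences were then -3.79 points in HFoleic and -3.27 points in HFepa. Both comparisons passed the exact permutation test in all 23 sets that lacked 1 library. Sets that lacked a library of the group not compared repeat the same permutation p, so they are no further check. Within HFoleic, libraries 9 to 11 had a mean of 60.0 ± 0.368% (SD, n = 3) and the others 57.6 ± 1.73% (SD, n = 5). With libraries 1 to 11 alone, HFoleic vs. reference differed by -3.56 points, which did not pass (exact permutation p = 0.164, with 3 HFoleic libraries). Without reference libraries 3, 4 and 5 the differences were -2.998 points in HFoleic and -2.48 points in HFepa, and both still passed (exact permutation, adjusted p = 0.0135 for each). All reference libraries have lower numbers than the high-fat libraries, so these sets cannot separate library number from group. The part of the library number in the difference was not tested beyond this.

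**Figure D3:**
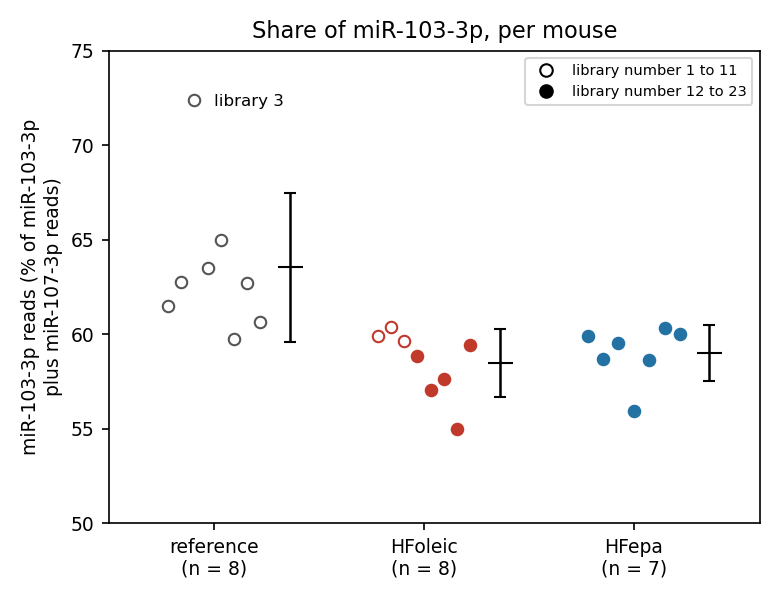
Share of miR-103-3p in the reads of miR-103-3p plus miR-107-3p, in percent, 1 point per mouse, with the mean ± SD in black; the axis runs from 50% to 75%. Open points are libraries numbered 1 to 11 and filled points 12 to 23. Of the 8 reference points 7 lie above all HFoleic and HFepa points, with library 3 at 72.4%.

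The same share was computed for every pair of tested miRNAs of equal length that differ at 1 base, an addition made after seeing the data. There were 12 such pairs among the 333 tested miRNAs with a sequence. In HFoleic vs. reference the share differed at an unadjusted exact permutation p under 0.05 in 6 of 12 pairs (50%), in HFepa vs. reference in 5 (41.7%), in HFepa vs. HFoleic in 2 (16.7%) and in both high-fat groups vs. reference in 7 (58.3%). Differences of this kind were thus common among such pairs. The counts include the miR-103 and miR-107 pair itself, and the pairs are not independent, as some share a miRNA such as let-7a-5p. In both high-fat groups vs. reference the pairs ran from -4.81 points for miR-103-3p with miR-107-3p to 14.3 points for miR-100-5p with miR-99a-5p. The differing base lies at position 22 in the miR-103 and miR-107 pair and between positions 9 and 19 in the others.

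**Figure D4:**
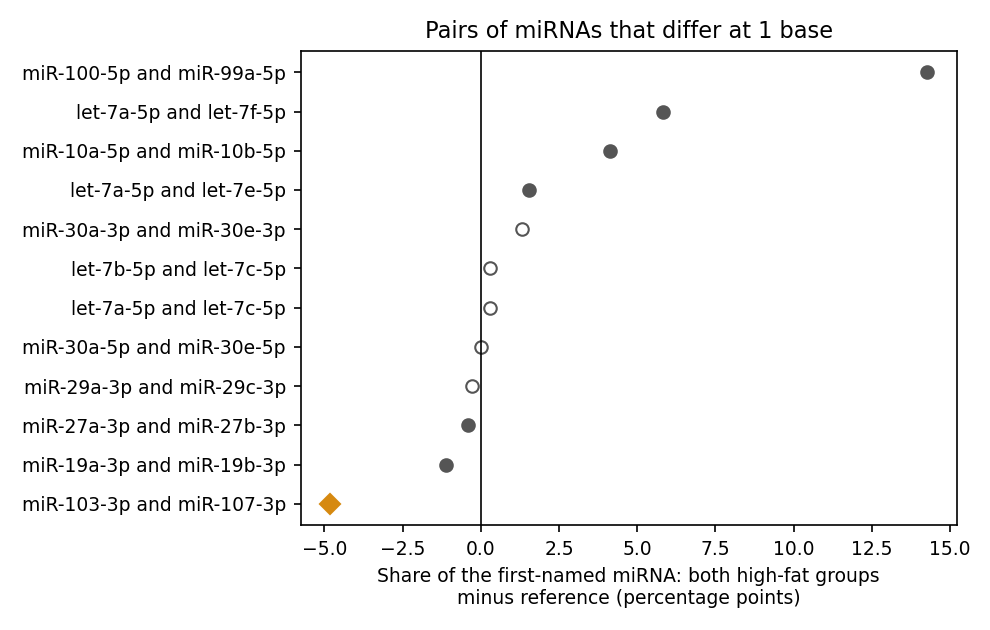
Difference in the share of the first-named miRNA, in percentage points, in both high-fat groups vs. reference for the 12 pairs of tested miRNAs that differ at 1 base. Filled points have an unadjusted exact permutation p under 0.05, which holds for 7 pairs, and the diamond is miR-103-3p with miR-107-3p at -4.81 points.

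Summed over both 3p members, which share a seed, reference mice averaged 2657 ± 323 CPM (SD, n = 8), HFoleic mice 3084 ± 189 CPM (SD, n = 8) and HFepa mice 2790 ± 335 CPM (SD, n = 7). The sum ran from 1993 to 3018 CPM in the reference group, from 2895 to 3459 CPM in HFoleic and from 2427 to 3301 CPM in HFepa. The ranges overlapped between all groups, and no test was run on the sum.

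The 5p strands were near the limit of detection. A count of 3 reads corresponds to 0.360 to 0.788 CPM in these libraries. The strand miR-107-5p had 147 reads over 22 of 23 libraries, 50 of them from reference, 66 from HFoleic and 31 from HFepa mice. Its level was 0.963 ± 0.485 CPM (SD, n = 8), 1.49 ± 0.539 CPM (SD, n = 8) and 1.05 ± 0.582 CPM (SD, n = 7) in these groups. Of the reads of the Mir107 hairpin 0.105% were 5p (95% Wilson interval 0.0894% to 0.124%). Without the filter on low counts, the log2 fold change of miR-107-5p in HFoleic vs. reference was 0.61 (standard error 0.39, edgeR adjusted p = 0.411 over 1218 entries), which did not pass the test.

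The strand miR-103-2-5p had 15 reads in 8 libraries and miR-103-1-5p had 7 reads in 5 libraries. These strands are the only ones of the family that tell the Pank2 locus from the Pank3 locus, and their counts are too few to compare the loci. Together they made up 0.0103% of the reads of both miR-103 hairpins (95% Wilson interval 0.0068% to 0.0156%).

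The miRNAs whose log2 CPM moved most like that of each 3p member over the 23 libraries were named by Pearson's r, as a description. For miR-103-3p they were miR-203-5p (r = 0.789), miR-107-3p (0.785) and miR-378a-3p (0.765). For miR-107-3p they were miR-101b-3p (0.889), miR-192-3p (0.887) and miR-203-5p (0.807), with miR-103-3p at position 6 of 385. Without reference library 3 the values for miR-107-3p were 0.731, 0.728 and 0.639, and those for miR-103-3p were 0.737, 0.762 and 0.724. These miRNAs share the libraries, their depth and the normalization.

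A seed close to that of the 3p members is found in the miR-15 and miR-16 group, known for restraining the cell cycle, whose AGCAGC stands 1 base further from the 5′ end. They are shown with bases 2 to 8 in capitals.
miR-16-5p: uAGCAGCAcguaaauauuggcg
miR-15a-5p: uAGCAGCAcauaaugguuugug
The counts list 7 such miRNAs, of which 6 were tested, and 0 were called by edgeR in HFoleic vs. reference, HFepa vs. reference or HFepa vs. HFoleic, where 3, 3 and 0 had an unadjusted p under 0.05. Over all tested miRNAs 12.4%, 15.8% and 0% were called and 28.5%, 28.5% and 5.7% had such a p. In HFoleic vs. reference their median was 0.04 on the log2 scale, against -0.00 over all tested miRNAs. In both high-fat groups vs. reference 4 of 6 had an unadjusted p under 0.05, against 32.1% of all tested miRNAs. Among them miR-15a-5p (0.20, edgeR adjusted p = 0.0301) and miR-16-5p (0.18, edgeR adjusted p = 0.0300) were higher but below the fold threshold. Lower was miR-195a-5p (-0.42, edgeR adjusted p = 0.118). In this comparison 1 of 6 was called, where 19.2% of all tested miRNAs were. This was miR-497a-5p, lower at -0.54 on the log2 scale (standard error 0.18, edgeR adjusted p = 0.0389). Its call was kept in 11 of 23 fits that left out 1 library and lost without reference library 3 or 4, HFoleic library 10, 13, 14, 15 or 23, or HFepa library 16, 17, 18, 21 or 22. Without reference library 3 it was at -0.20.

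Among 20 tested miRNAs linked to insulin action or lipid metabolism in liver, 2 were called in HFoleic vs. reference, where 12.4% of all tested miRNAs were. The level of miR-33-5p, which lies in an intron of Srebf2 and limits cholesterol export, rose by 0.58 on the log2 scale (standard error 0.17, edgeR adjusted p = 0.0278). That of miR-181b-5p was lower, at -0.52 (edgeR adjusted p = 0.0278). Leaving out 1 library kept the call of miR-33-5p in 20 of 23 fits (lost without reference library 5 or HFoleic library 14 or 23) and that of miR-181b-5p in 18 (lost without reference library 5 or HFoleic library 10, 13, 14 or 15). Without reference library 3 miR-181b-5p was still called, at -0.32. The same miRNAs were called in both high-fat groups vs. reference, with 0.51 and -0.45, where 19.2% of all tested miRNAs were called. In HFepa vs. reference 0 of the 20 were called, against 15.8% of all tested miRNAs. An unadjusted p under 0.05 was found there for 6 of them, against 28.5% of all tested miRNAs. In that comparison miR-33-5p stood at 0.45 (edgeR adjusted p = 0.0758) and miR-181b-5p at -0.38 (edgeR adjusted p = 0.0923). In HFepa vs. HFoleic 0 of the 20 were called, as were 0% of all tested miRNAs. There 0 of the 20 had an unadjusted p under 0.05, against 5.7% of all tested miRNAs. On the log2 scale the list's median was 0.06 in HFoleic and 0.03 in HFepa against the reference group, where all tested miRNAs had -0.00 and -0.06.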

How the data were processed

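Liver small RNA libraries of 23 mice were made with the TruSeq Small RNA kit. The authors trimmed adapters with the FASTX-Toolkit, aligned reads with Bowtie in ncPRO-seq and deposited raw read counts of mature miRNAs of miRBase, with no normalization. The submitters' processing notes name mm10 and bcl2fastq 2.17.1.14, whereas the methods name other builds as well. The deposited table also holds size-factor-scaled signals, group means and the authors' fold changes and p-values, which were not used.

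Groups come from the sample labels. Libraries of a group differed by more than sampling noise (chi-square per degree of freedom at least 28.9), so each was 1 replicate. Counts were filtered with filterByExpr by group, scaled by TMM and fitted over the 3 groups with edgeR's quasi-likelihood test (R 4.3.3, edgeR 4.0.16), with Benjamini-Hochberg adjustment over 386 miRNAs. The 386 hold 99.98% of the counts. CPM used the TMM factors. The share of miR-103-3p was tested by a two-sided exact permutation test over libraries (Python 3.11.15), with the size of the difference as its statistic. The methods name DEGseq, which takes reads and not mice as the error. The fits of levels were checked on simulated counts. The exact permutation test was checked against another implementation on random normal values.

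The text names the 5 members, the 3 miRNAs most like each 3p member, and called members of the lists. For both high-fat groups vs. reference it also names members of the miR-15 and miR-16 group with an unadjusted p under 0.05. Members and lists were chosen with earlier results of these data known. Alternatives were library size alone, upper-quartile factors, DESeq2 1.42.0, quantile normalization with limma 3.58.1, no low-count filter, a minimum of 10 counts in all libraries, no fold threshold, only the groups compared, library number (1 to 11 against 12 to 23) as a term, each of those sets alone and each library left out. PCR reads carry no molecular identifiers, so the Wilson intervals take every read as independent and cover counting error at most. The intervals of the fold changes come from the edgeR fit, in which each library was a replicate.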

Additional observations from a re-analysis of the deposited data

Results flagged for a closer look

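In groups of 7 and 8 libraries, the gap between an extreme library and its neighbour was compared with the range of the group, using Dixon's 95% critical value. Of 12 groups of values examined, 3 held a library past that value, and chance alone passes about 5% of groups. The level of miR-107-3p in reference library 3 was 550.4 CPM, against 937 to 1215 CPM in the other reference libraries. The share of miR-103-3p in the same library was 72.4%, against 59.7% to 65.0% in the others. In this library the hepatocyte miRNAs summed to 187969 CPM and the biliary epithelial miRNAs to 1094 CPM, and their part in the low miR-107-3p was not tested. The share of miR-103-3p in HFepa library 19 was 55.9%, against 58.7% to 60.3% in the other HFepa libraries.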

How the results depend on the processing

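No paired analysis was possible because the labels give the groups no shared replicate numbers. The number of members called in HFoleic vs. reference was 1 in the edgeR fit reported and with 10 or more counts per library. It was also 1 with no fold threshold, which uses the same fit and cannot remove a call. It was 0 with library size alone, upper-quartile factors, DESeq2, quantile normalization with limma, no filter, only the groups compared, the library-number term, libraries 1 to 11 alone, and reference libraries 3, 4 and 5 left out, a setting chosen after seeing the data. In both high-fat groups vs. reference it was likewise 1 as reported and 0 in the same settings that could be run there. The log2 fold change of miR-107-3p stayed positive, between 0.21 and 0.41 in HFoleic vs. reference (edgeR, DESeq2 and limma adjusted p from 0.0357 to 0.662) and between 0.13 and 0.32 in both groups (0.0389 to 0.729). With 1 library left out, the number of members called ran from 0 to 1 in both comparisons. The log2 fold change of miR-103-3p turned sign in HFepa vs. reference with quantile normalization (0.067) and the library-number term (0.022), and in both high-fat groups with library size alone (-0.025) and without reference libraries 3, 4 and 5 (-0.032). With 1 library left out it ran from -0.076 to 0.013 in HFepa vs. reference. The cause was not tested. The share in HFoleic vs. reference was -3.56 points with libraries 1 to 11 alone (exact permutation p = 0.164). Without reference libraries 3, 4 and 5 it was -2.998 points, and still passed.

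Over all miRNAs, the 48 calls in HFoleic vs. reference became 25 with DESeq2, 10 with limma, 29 with no filter, 7 with only the groups compared, 1 with the library-number term, 0 with libraries 1 to 11 alone and 2 without reference libraries 3, 4 and 5. The 61 in HFepa vs. reference became 24 with limma, 40 with only the groups compared, 0 with the library-number term and 32 without those reference libraries. The 74 in both groups became 25, 0 and 32 with limma, the term and those libraries left out. The remaining settings gave 37 to 49, 43 to 69 and 53 to 92 calls, with 92 in both groups with no filter, 87 with no fold threshold and 82 with library size alone.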

Other observations

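Lists of other cell types were described by the calls of edgeR's quasi-likelihood test in the comparisons with the reference group. The hepatocyte, red blood cell, and stellate cell and fibroblast lists had 0 of 5 tested miRNAs called in HFoleic vs. reference, where 2, 0 and 0 had an unadjusted p under 0.05, and 0 of 5 in HFepa vs. reference, where 1, 0 and 1 had one. Over all tested miRNAs 12.4% and 15.8% were called in these comparisons, and 28.5% had such a p in each. The single tested muscle miRNA, miR-133a-3p, had log2 fold changes of -2.64 and -2.85 and was called in both, but 1 library carried them. The muscle miRNAs summed to 217 CPM in reference library 4 and to at most 12.2 CPM in every other library, and without library 4 the values of miR-133a-3p were -0.15 and -0.36 and it was not called. Its call was also lost in 8 further fits without 1 library in HFoleic vs. reference (5, 10 to 15 or 23) and in 7 in HFepa vs. reference (16 to 22). The single tested pancreas miRNA, miR-375-3p, was called with -3.87 and -4.19. The pancreas miRNAs summed to 2021 CPM in reference library 5 and to at most 57.4 CPM elsewhere, and without library 5 the values of miR-375-3p were -0.32 and -0.62 and it was not called. Of 5 leukocyte miRNAs, 1 had an unadjusted p under 0.05 in each comparison, miR-150-5p. It was called lower in both, also with each library left out. Over all miRNAs 0 were called in HFepa vs. reference with the library-number term, so its call was lost there. The same holds for HFoleic vs. reference with libraries 1 to 11 alone. Of 5 biliary epithelial miRNAs, 0 were called in HFoleic vs. reference, where 1 had an unadjusted p under 0.05, and miR-429-3p was called in HFepa vs. reference at -1.22 on the log2 scale, but not without reference library 3, where it was at -0.48, nor without HFepa library 16, 17, 18, 20, 21 or 22.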
